A study of Rattus norvegicus with 30 samples.

Results

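Slc17a7 (ENSRNOG00000020650), Slc17a6 (ENSRNOG00000016147) and Cbln1 (ENSRNOG00000000010) were followed across the hippocampus, thalamus and perilesional cortex in traumatic brain injury (TBI) and after sham operation. They are 3 of the 26404 genes in the count tables. They were chosen by their measured levels in the 3 brain areas, and the levels in the sham-operated rats are therefore a description with no test. The genes were found by Ensembl identifier, and all 3 were counted in every library and passed the filter on low counts in every brain area.

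Messenger RNA was sequenced from 10 adult male Sprague-Dawley rats, an outbred strain. Rats 1 to 5 were sham-operated and rats 6 to 10 received lateral fluid-percussion injury, in which a pulse of fluid strikes the intact dura through an opening in the skull over the left parietal lobe. All rats, controls included, had the same anaesthesia and craniectomy, so the effect of surgery itself is in both groups. Tissue was taken 3 months after the operation, and each rat gave 1 library from each area, which made 30 libraries in 6 groups of 5. The hippocampal piece is described in the dissection protocol as the dentate gyrus with the neighbouring part of CA3, not the whole hippocampus.

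A glutamatergic neuron loads glutamate into its synaptic vesicles through a vesicular glutamate transporter. Slc17a7 encodes VGLUT1, which is typical of cortical and hippocampal excitatory neurons, and Slc17a6 encodes VGLUT2, which is typical of thalamic relay neurons and other subcortical excitatory neurons. Cbln1 encodes cerebellin 1, a secreted protein that bridges presynaptic neurexin and postsynaptic delta-type glutamate receptors, and is best known for its role at parallel fibre synapses in the cerebellum.

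The promoters of the 2 transporters are shown because the 2 genes encode the same function and had opposite levels by brain area. Both are 300 bases of the forward strand of chromosome 1 from RefSeq (build GRCr8), with 250 bases before and 50 after the start used in the promoter table, which for Slc17a7 lies downstream of the start of its gene record. The Slc17a7 promoter lies at chr1:104785955-104786254 and the Slc17a6 promoter at chr1:110348197-110348496. These coordinates are not of the build to which the reads were aligned. Capitals mark the GC box GGGCGG on either strand in the first sequence, where 2 of the matches overlap, and the TCF/LEF core ATCAAAG on the reverse strand in the second.
Slc17a7: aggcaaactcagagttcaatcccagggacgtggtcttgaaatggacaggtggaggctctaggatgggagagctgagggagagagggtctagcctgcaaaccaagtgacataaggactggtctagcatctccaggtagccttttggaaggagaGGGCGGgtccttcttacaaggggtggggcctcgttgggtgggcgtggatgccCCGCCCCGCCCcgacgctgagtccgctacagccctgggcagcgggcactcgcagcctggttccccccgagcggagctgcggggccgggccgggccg
Slc17a6: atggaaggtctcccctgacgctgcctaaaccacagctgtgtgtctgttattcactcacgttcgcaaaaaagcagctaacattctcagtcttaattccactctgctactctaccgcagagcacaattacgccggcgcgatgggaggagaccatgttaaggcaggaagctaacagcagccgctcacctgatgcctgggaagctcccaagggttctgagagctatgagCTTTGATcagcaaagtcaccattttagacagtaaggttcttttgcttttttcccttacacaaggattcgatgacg
The Slc17a7 promoter had a GC content of 64.7% with 17 CpG dinucleotides, and the Slc17a6 promoter 49% with 11, against medians of 51.7% and 7 over 33469 rat promoters of the same length. The Slc17a7 window held 3 GC boxes, a motif found in 33.1% of the promoters, and the Slc17a6 window held 0. The Slc17a6 window held 1 ATCAAAG, 25 bases before that start, a motif found in 3.63% of the promoters, and the Slc17a7 window held 0. Each window held 2 E-boxes (CANNTG), a motif found in 72.1% of the promoters. The motifs were chosen after the sequences were seen, both strands were searched, and a match is a description only.

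The libraries held between 21992859 and 31799879 counts. The 10 most counted genes took 44.1% and 40.9% of the counts in the hippocampal libraries of sham-operated rats 4 and 5, against 15.1% to 16.4% in those of rats 1 to 3 and 9.95% to 15.5% in those of the TBI rats. The hippocampal libraries of rats 3 and 8 went against the other tissues of these rats. Of the 71 genes at least 3-fold apart between rats 3 and 8 in the same direction in cortex and thalamus, 15 were at least 2-fold apart in the opposite direction in the hippocampus and 0 in the same direction. The other 24 pairs of a sham-operated and a TBI rat had 11 such genes in the opposite direction, at most 4 in a pair, and 435 in the same direction. These folds, and a minimum mean of 1 CPM, were chosen after a first run at 8-fold in all areas with no minimum, which found 1 opposite gene of 5 for rats 3 and 8 and 0 for the other pairs. An exchange of these 2 libraries, which would put a TBI library among the sham-operated rats and the reverse, was not tested otherwise. The labels were kept, and the hippocampal tests of TBI against sham and of interactions are given with and without rats 3 and 8. Transporter shares and differences within a rat are given with all rats. By the study's methods, another instrument and longer reads were used for the thalamus, which the sample labels do not state, so brain area and sequencing cannot be told apart in comparisons with the thalamus. In bulk tissue, fewer cells of a type and less RNA per cell cannot be told apart.

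Levels are given as CPM, that is, counts relative to the library size after scaling by the trimmed mean of M values (TMM) over the 30 libraries. Since gene lengths were not used, levels are compared between areas for 1 gene and not between genes.

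Slc17a7 was highest in the hippocampus, lower in the cortex and lowest in the thalamus, in 10 of 10 rats. In sham-operated rats 1 to 5 its hippocampal level was 3390, 2570, 2690, 2690 and 2480 CPM. The cortical level was 1340, 1120, 1090, 1340 and 1150 CPM. The thalamic level was 689, 483, 373, 385 and 456 CPM. The 3 areas did not overlap, with means of 2760 ± 360, 1210 ± 122 and 477 ± 127 CPM (SD, n = 5). The hippocampal mean was 2.29 times the cortical mean and 5.79 times the thalamic mean, and of the sum of the 3 means 62.1% was hippocampal. Scaled by library totals alone, the hippocampal mean was 2260 CPM.

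Slc17a6 had the reverse order, with the thalamus above the cortex and the cortex above the hippocampus in 10 of 10 rats. In sham-operated rats 1 to 5 the thalamic level was 87.3, 159, 102, 88.4 and 188 CPM. The cortical level was 7.91, 11.7, 12.3, 9.85 and 11 CPM. The hippocampal level was 1.98, 1.13, 2.47, 2.52 and 2.23 CPM, close to the lower limit of what these libraries measure well. The areas did not overlap, and the means were 125 ± 45.8, 10.6 ± 1.74 and 2.06 ± 0.567 CPM (SD, n = 5). The thalamic mean was 11.8 times the cortical and 60.6 times the hippocampal mean, and the thalamus held 90.8% of the sum of the 3 means.

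Of the counts of both transporters together, Slc17a6 made up 21.1% ± 6.74 in the thalamus of sham-operated rats, 0.884% ± 0.22 in the cortex and 0.0754% ± 0.0228 in the hippocampus (SD, n = 5). In TBI rats these shares were 27.3% ± 9.89, 0.775% ± 0.176 and 0.0813% ± 0.0273. The shares are not corrected for gene length, so only their change between areas can be read. The share was highest in the thalamus and lowest in the hippocampus in both treatment groups, and the 2 groups overlapped within each area.

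Cbln1 was also highest in the thalamus in 10 of 10 rats, and the cortex was above the hippocampus in 9 of 10, but in the sham-operated rats these 2 areas overlapped. In sham-operated rats 1 to 5 the thalamic level was 48, 49.6, 65.1, 62.6 and 66.4 CPM. The cortical level was 4.43, 2.75, 1.4, 3.06 and 3.19 CPM. The hippocampal level was 2.12, 3.58, 1.11, 2.83 and 2.36 CPM. The thalamic mean of 58.4 ± 8.83 CPM was 19.7 times the cortical mean of 2.97 ± 1.08 and 24.3 times the hippocampal mean of 2.4 ± 0.914 (SD, n = 5). The hippocampal minus cortical difference within a rat was -0.30 ± 0.50 on the log2 scale (SD, n = 5) and ranged from -1.02 to 0.37, so these neighbours in the order did not differ beyond their spread. In TBI rats the same difference was -2.02 ± 1.0 (SD, n = 5) and ranged from -3.33 to -0.995.

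**Figure D1:**
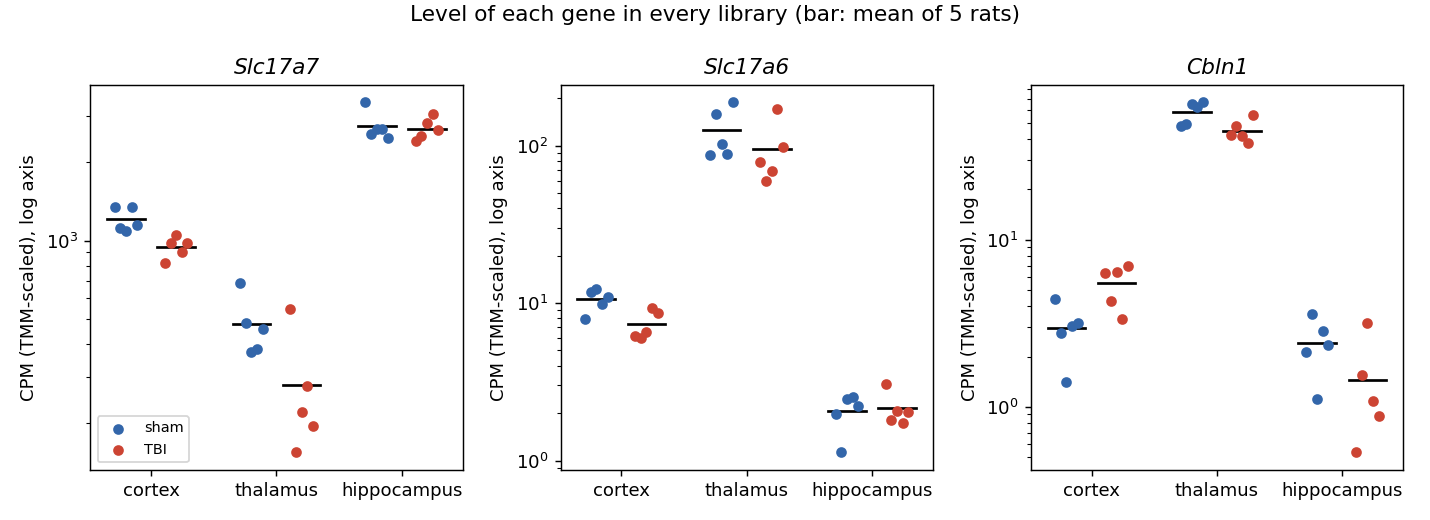
Each point is 1 library, with CPM after TMM scaling on a log axis, for sham-operated (blue) and TBI rats (red) in the 3 brain areas, and the bar is the mean of 5 rats. Slc17a7 falls from hippocampus to cortex to thalamus, while Slc17a6 and Cbln1 are highest in the thalamus.

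The perilesional cortex was compared first, since it borders the lesion. All 3 genes changed there 3 months after TBI: both transporters fell and Cbln1 rose. With edgeR (quasi-likelihood test, Benjamini-Hochberg adjustment over all genes tested, threshold 0.05), 25.8% of the 17185 genes tested in the cortex were called, against 3 of the 3 members.

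Slc17a7 in the cortex of TBI rats 6 to 10 was at 820, 981, 1050, 901 and 982 CPM, and all 5 lay below the lowest sham-operated rat (1090 CPM). The mean was 948 ± 89.4 CPM (SD, n = 5). The level fell by 0.37 on the log2 scale (SE 0.10, 95% interval -0.57 to -0.16, edgeR adjusted p = 0.0112), which is 1.29-fold lower. Slc17a6, of which the cortex holds little, was at 6.16, 6.02, 6.58, 9.3 and 8.71 CPM in TBI rats, with 3 of 5 below all sham-operated rats. The mean was 7.35 ± 1.54 CPM (SD, n = 5), and the level fell by 0.54 on the log2 scale (SE 0.15, 95% interval -0.85 to -0.22, edgeR adjusted p = 0.0156). In 10 of 10 fits without 1 rat, the falls of Slc17a7 and Slc17a6 passed the threshold. In 1 fit of all brain areas together, which called 19.9% of genes in the cortex, neither did (edgeR adjusted p = 0.194 and 0.117). When the fit took into account how much of each library the 10 most counted genes made up, the fall of Slc17a7 was 0.22 (edgeR adjusted p = 0.102), while that of Slc17a6 was 0.76 (edgeR adjusted p = 0.00304) and Cbln1 rose by 1.08 (edgeR adjusted p = 0.0409), with 24.3% of genes called. That share was 20.3% to 29.6% in the cortex of sham-operated rats and 14.1% to 23.8% in that of TBI rats, and its part in the result was not tested otherwise. The summed level of 7 other genes high in the cortex (at least 10 CPM there, 16 times the thalamic and 4 times the hippocampal level) was 198 to 235 CPM in the cortex of sham-operated rats and 139 to 197 CPM in that of TBI rats, without overlap, and the part of these genes in the falls was not tested.

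Cbln1 in the cortex of TBI rats 6 to 10 was at 6.36, 4.32, 6.41, 3.37 and 6.92 CPM. Rats 6, 8 and 10 lay above all sham-operated rats, and rats 7 and 9 lay within their range. The mean was 5.48 ± 1.54 CPM (SD, n = 5), and the level rose by 0.88 on the log2 scale (SE 0.27, 95% interval 0.31 to 1.45, edgeR adjusted p = 0.0267), which is 1.84-fold higher. The libraries held few counts of Cbln1, with 40 to 89 in those of sham-operated rats and 105 to 221 in those of TBI rats. Without rat 2, 6, 8 or 10, the edgeR adjusted p was 0.062, 0.0593, 0.0623 and 0.0557, while the rise stayed between 0.69 and 1.08 on the log2 scale over the fits with 1 rat left out. The summed level of 34 other genes at least 16 times as high in the thalamus as in both other areas was 57.4 to 67.1 CPM in the cortex of sham-operated rats and 68.3 to 89.5 CPM in that of TBI rats, without overlap. Their mean log2 CPM overlapped, at -0.14 to 0.14 in sham-operated rats and -0.20 to 0.26 in TBI rats, with TBI rat 9 the lowest, so the sum followed the more abundant of these genes. Their part in the result was not tested.

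In the thalamus the members were lower in mean after TBI, and none passed the threshold, against 5.62% of the 16605 genes tested. Slc17a7 in TBI rats 6 to 10 was at 548, 154, 219, 276 and 194 CPM. Rats 7 to 10 lay below every sham-operated rat, and rat 6 lay above 4 of the 5. The mean was 278 ± 157 CPM (SD, n = 5), with a difference of -0.77 on the log2 scale (SE 0.30, 95% interval -1.41 to -0.13, edgeR adjusted p = 0.14).

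The call depended on the fit and on rat 6. With all 10 rats, Slc17a7 passed the threshold in 1 fit of all brain areas together (-0.79, edgeR adjusted p = 0.0087), which called 19.2% of genes, and with limma's voom and sample weights (-1.01, adjusted p = 0.0185), which called 16.1%, but not with DESeq2 (-0.77, adjusted p = 0.073). Without rat 6 the thalamic Slc17a7 level fell by 1.16 on the log2 scale (SE 0.20, edgeR adjusted p = 0.00343), in a fit that called 14.5% of the 16684 genes. Over the fits with 1 rat left out the difference lay between -1.16 and -0.58. Rats 1 and 6 had the highest thalamic Slc17a7 of their groups, and also the highest summed level of 31 other genes high in the hippocampus (at least 10 CPM there, 16 times the thalamic and 4 times the cortical level). In sham-operated rats 1 to 5 this sum in the thalamus was 561, 160, 122, 210 and 166 CPM, and in TBI rats 6 to 10 it was 418, 202, 199, 184 and 162 CPM. The list was chosen after the data were seen, from medians over the libraries of an area, in place of a first list of 36 genes from means, for which rats 1 and 6 were also the highest of their groups, at 475 and 345 CPM. Without rats 1 and 6 the difference in thalamic Slc17a7 was -0.97 (SE 0.16, edgeR adjusted p = 0.00334, 12.6% of genes called). Both rats were singled out after the data were seen and had the highest Slc17a7 of their groups, so leaving them out narrows the spread of the gene tested, and this p is not independent of that choice. The same holds for leaving out rat 6 alone. The part of these genes in the result was not tested.

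**Figure D2:**
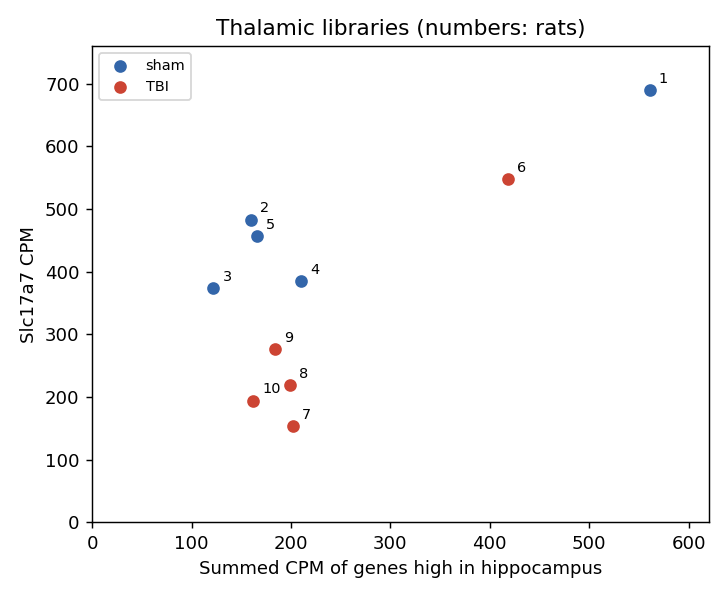
Each point is the thalamic library of 1 rat, numbered, with Slc17a7 in CPM against the summed CPM of 31 genes high in the hippocampus. Rats 1 and 6 are the highest on both axes and stand apart in the summed genes, and among the others the 4 TBI rats lie below the 4 sham-operated rats.

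Slc17a6, which is typical of thalamic relay neurons, was at 78.6, 59.2, 69.1, 172 and 98.2 CPM in the thalamus of TBI rats 6 to 10. Rats 6 to 8 lay below all sham-operated rats, whereas rat 9 lay near their top. The mean was 95.4 ± 45.1 CPM (SD, n = 5). The difference was -0.37 on the log2 scale (SE 0.28, 95% interval -0.98 to 0.25, edgeR adjusted p = 0.464), an interval that holds both a marked fall and a small rise. The difference was -0.68 without rat 9 (edgeR adjusted p = 0.11) and -0.19 without rat 5 (edgeR adjusted p = 0.75), and -0.81 (edgeR adjusted p = 0.152) with the covariate for the 10 most counted genes.

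Cbln1 in the thalamus of TBI rats 6 to 10 was at 42.1, 47.8, 41.9, 38 and 55.6 CPM, with 4 of 5 below all sham-operated rats. The mean was 45.1 ± 6.85 CPM (SD, n = 5). The difference was -0.35 on the log2 scale (SE 0.13, 95% interval -0.64 to -0.07, edgeR adjusted p = 0.132), and in 0 of 10 fits with 1 rat left out did it pass the threshold. The 34 genes high in the thalamus summed to 2290 to 3080 CPM in sham-operated rats and 1470 to 2320 CPM in TBI rats. Cbln1 and this sum were thus both lower in mean after TBI, and their relation was not tested.

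In the hippocampus none of the members passed the threshold. edgeR's quasi-likelihood test called 0 of 16963 genes (0%), 1432 genes had an unadjusted p under 0.05, and DESeq2 called 46. Slc17a7, at its highest level here, was at 2400, 2520, 2820, 3070 and 2650 CPM in TBI rats 6 to 10, within or just below the range of the sham-operated rats. The mean was 2690 ± 265 CPM (SD, n = 5), with a difference of -0.05 on the log2 scale (SE 0.10, 95% interval -0.25 to 0.15, edgeR adjusted p = 0.917). Slc17a6 was at 3.07, 1.82, 2.05, 1.74 and 2.04 CPM, a mean of 2.14 ± 0.537 (SD, n = 5), with a difference of 0.06 (SE 0.22, 95% interval -0.41 to 0.54, edgeR adjusted p = 0.962). Its counts were 27 to 67 in sham-operated and 48 to 92 in TBI rats. The interval gives the uncertainty of the difference and is not a limit of detection. Without rats 3 and 8 the differences were -0.07 for Slc17a7 and 0.17 for Slc17a6, and neither passed the threshold. Without rats 4 and 5 as well they were -0.14 (edgeR adjusted p = 0.769) and 0.49 (edgeR adjusted p = 0.577).

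Cbln1 in the hippocampus of TBI rats 6 to 10 was at 0.535, 1.54, 3.16, 1.09 and 0.885 CPM. Rat 8 lay above 4 of the 5 sham-operated rats, and sham-operated rat 3 (1.11 CPM) lay among the TBI rats. The mean was 1.44 ± 1.03 CPM (SD, n = 5), with a difference of -0.73 on the log2 scale (SE 0.44, 95% interval -1.69 to 0.24, edgeR adjusted p = 0.707). Without rats 3 and 8, the rats whose hippocampal libraries went against their other tissues, the groups did not overlap, at 2.12 to 3.58 CPM in 4 sham-operated rats and 0.535 to 1.54 CPM in 4 TBI rats. In that fit Cbln1 fell by 1.43 on the log2 scale (SE 0.28, edgeR adjusted p = 0.0191), and 1.55% of the 16960 genes were called. Without rats 4 and 5 as well, whose libraries were dominated by few genes, the difference was -1.46 but did not pass (SE 0.35, edgeR adjusted p = 0.0977). With 1 rat left out it lay between -1.23, without rat 8, and -0.52 and did not pass. Hippocampal Cbln1 itself was lower in sham-operated rat 3 than in TBI rat 8, opposite to the other rats, so it is not independent of the choice to leave them out. In Cbln1, these 2 rats differed in the same direction in the cortex (1.4 and 6.41 CPM) and in the opposite direction in the thalamus (65.1 and 41.9 CPM). The counts behind the hippocampal values were 16 to 94.

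**Figure D3:**
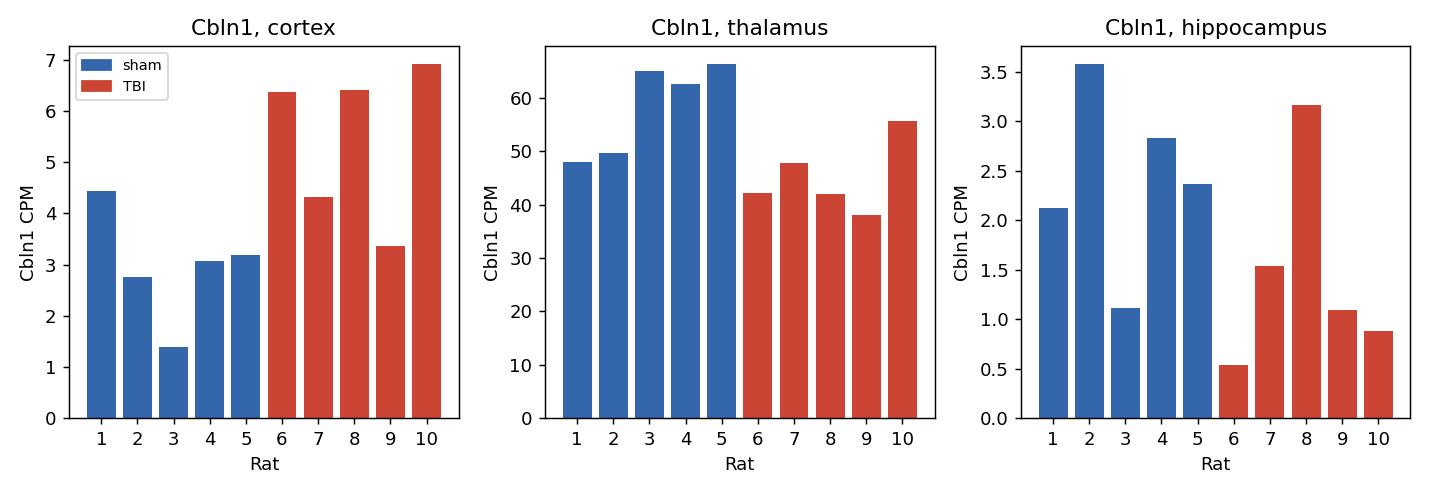
Bars give Cbln1 in CPM in each rat, for sham-operated (blue) and TBI rats (red) in the 3 brain areas, each with its own axis from 0. TBI rats 6, 8 and 10 exceed all sham-operated rats in the cortex, and in the hippocampus rats 3 and 8 lie apart from their groups.

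A term for the interaction of treatment with area tested, over 18040 genes, whether the change after TBI was unequal across areas. None of the 9 interactions of the members passed an adjusted p of 0.05. The test called 0.582% of genes between cortex and thalamus, 0.449% between cortex and hippocampus and 0.322% between thalamus and hippocampus. The comparisons share the libraries of each area and are not independent of each other.

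The 2 largest differences were those of Cbln1, which rose in the cortex. Its thalamic change minus its cortical change was -1.24 on the log2 scale (SE 0.40, 95% interval -2.06 to -0.41, edgeR adjusted p = 0.181). Its hippocampal change minus its cortical change was -1.57 (SE 0.47, 95% interval -2.53 to -0.62, edgeR adjusted p = 0.113). The latter passed in DESeq2 (-1.57, adjusted p = 0.0311), which called 1.27% of all 26404 genes, genes without an adjusted p included. It also passed in edgeR without the hippocampal libraries of rats 3 and 8 (-2.28, adjusted p = 0.00579), where 0.143% of genes were called. These 2 rats stood apart from their groups in hippocampal Cbln1 itself, so this edgeR p is not independent of leaving them out. Its hippocampal change minus its thalamic change was -0.34 (SE 0.44, 95% interval -1.23 to 0.56, edgeR adjusted p = 0.773). It was -1.04 without the hippocampal libraries of rats 3 and 8 (SE 0.37, edgeR adjusted p = 0.281). With 1 rat left out it lay between -0.86, without rat 8, and -0.06, without rat 2, and did not pass.

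For Slc17a7 the hippocampal change minus the thalamic change was 0.75 on the log2 scale (SE 0.30, 95% interval 0.14 to 1.35, edgeR adjusted p = 0.218). Without rat 6 it was 1.19 (edgeR adjusted p = 0.00135), in a fit that called 7.76% of genes. The thalamic change minus the cortical change was -0.40 (SE 0.30, 95% interval -1.0 to 0.20, edgeR adjusted p = 0.757), and without rat 6 it was -0.85 (edgeR adjusted p = 0.0492), where 0.752% of genes were called. Rat 6 was singled out after the data were seen and had the highest thalamic Slc17a7 of its group. Neither p without rat 6 is therefore independent of that choice, and each difference passed in 1 of 10 fits without 1 rat. For Slc17a6, the 3 differences between areas ranged from 0.16 to 0.64, with edgeR adjusted p between 0.52 and 0.963. With 1 rat left out, the hippocampal minus the thalamic change lay between 0.20, without rat 2, and 0.85, without rat 9, and the hippocampal minus the cortical change between 0.41, without rat 6, and 0.80, without rat 9, and none passed. Without the hippocampal libraries of rats 3 and 8 these differences were 0.59 and 0.75 for Slc17a6 and 0.72 and 0.32 for Slc17a7, and none passed.

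**Figure D4:**
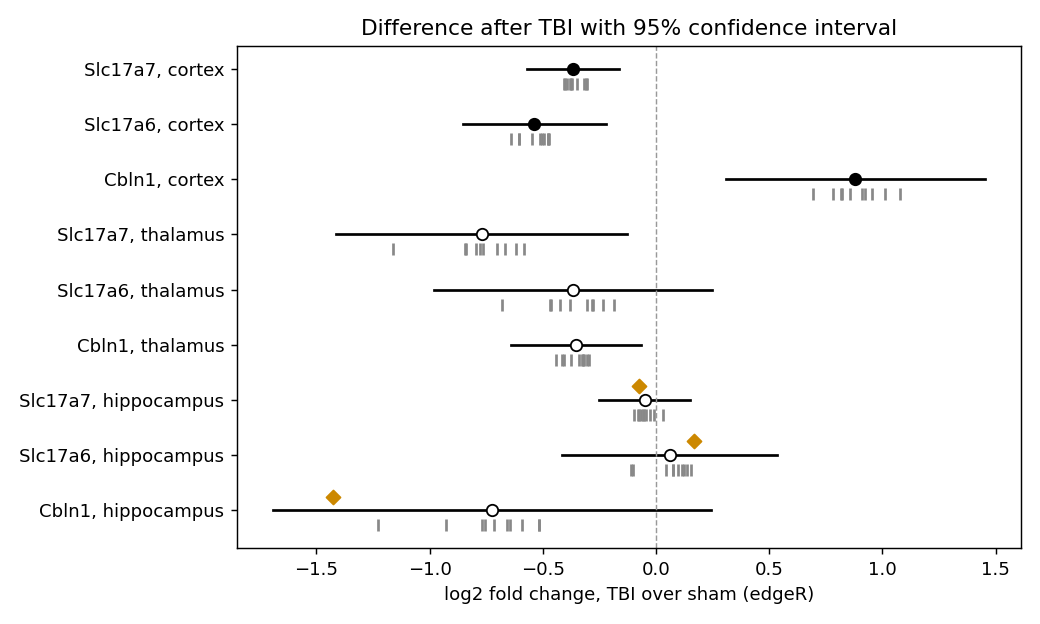
Dots are log2 fold changes of TBI over sham-operated rats in each brain area with 95% confidence intervals (edgeR), filled where the adjusted p is under 0.05. Grey ticks leave out 1 rat each and orange diamonds leave out rats 3 and 8. The 3 filled dots are those of the cortex, with both transporters below 0 and Cbln1 above.

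The genes with the pattern most like each member over the 30 libraries were found by Pearson's correlation of log2 CPM among 15598 genes, with no test, since brain area sets most of the variance. For Slc17a7 it was ENSRNOG00000021256 (r = 0.988), for Slc17a6 ENSRNOG00000036859 (r = 0.985) and for Cbln1 ENSRNOG00000042915 (r = 0.972). With group means removed, the correlations were 0.937, 0.338 and 0.476. Such patterns were common, with 448, 580 and 489 genes above 0.9 for the 3 members.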

How the data were processed

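Polyadenylated RNA of 3 brain areas from 10 rats was sequenced (30 libraries, groups from the sample labels). The authors aligned the reads to Rnor_5.0 with STAR and deposited unnormalized counts per Ensembl gene. The counting tool, annotation release and use of strand are not given in the sources used here. The study discarded 2 hippocampal libraries of controls without naming them, and all 10 were used here.

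In each area, genes were kept by filterByExpr (minimum count 10, total 15), scaled by TMM and tested with edgeR 4.0.16 (robust quasi-likelihood, limma 3.58.1, R 4.3.3), with Benjamini-Hochberg adjustment over all genes tested and a threshold of 0.05. For log2 CPM the prior count was 3. Depth was 21992859 to 31799879 counts per library. The interaction of area and treatment was fitted over all libraries. Alternatives were DESeq2 1.42.0, RLE scaling, no filter, voom with sample weights, one fit for all areas, rats left out, and the rat as replicate block. Chosen after seeing the data were the covariate of the 10 most counted genes, the hippocampal libraries of 1 flow cell, the thalamus without rats 1 and 6, and interactions fitted on the 2 areas compared. The fits were also run on simulated counts with 2-fold changes and no outlying or exchanged libraries. That outcome is not given here, and it cannot show how such libraries affect the calls.

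The members and lists were chosen with earlier results of these data known. The folds and minimum level used to compare rats 3 and 8 with their other tissues, and the use of medians for the lists of genes high in 1 area, replaced first settings after their output was seen. Named were the members and the gene most like each. The tables hold identifiers without names, and the reference table (47357 genes) paired 0 of them, so the pathway and cell type marker lists, which would also check the dissections, were not analysed here. The symbols of the 3 members came with their identifiers.

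Replicates were separate rats. The same rats gave all 3 areas, so the rat pairs the libraries. Over 15601 genes, the median correlation of same-rat deviations from group means was 0.0274 between cortex and thalamus, 0.107 between cortex and hippocampus and 0.0238 between thalamus and hippocampus.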

Additional observations from a re-analysis of the deposited data

Results flagged for a closer look

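In the hippocampus, Slc17a7 of sham-operated rat 1 was at 3390 CPM, far above the next rat of its group (2690 CPM), with a gap of 0.739 of the range of the group on the log2 scale. Slc17a6 of TBI rat 6 was at 3.07 CPM in the hippocampus, against 2.05 CPM in the next rat, with a gap of 0.713 of the log2 range. The limit for 5 values is 0.71 (Dixon's test at 95%), both values are just past it, and chance alone passes it in about 5% of groups, of which 18 were tested.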

How the results depend on the processing

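In the cortex, each member kept its direction under the 16 alternatives run, and the falls of Slc17a7 and Slc17a6 and the rise of Cbln1 passed the threshold in 14, 15 and 12 of them. One fit for all areas gave -0.39 for Slc17a7 and -0.56 for Slc17a6, and the covariate of the 10 most counted genes gave -0.22 for Slc17a7, -0.76 for Slc17a6 and 1.08 for Cbln1, of which the last 2 passed. With 1 rat left out, Cbln1 ranged from 0.69 to 1.08. In the thalamus, Slc17a7 passed with voom (-1.01), with one fit for all areas (-0.79), without rats 1 and 6 (-0.97) and without rat 6, over a range of -1.16 to -0.58 with 1 rat left out. In the hippocampus, Cbln1 passed without rats 3 and 8 (-1.43), but not without rats 3, 4, 5 and 8 (-1.46) nor with 1 rat left out (-1.23 to -0.52). The sign there turned for Slc17a7 with voom (0.023) and in the libraries of 1 flow cell (0.019), and ranged from -0.10 to 0.03 with 1 rat left out, and for Slc17a6 with voom (-0.0057) and over -0.11 to 0.15 with 1 rat left out. The cause was not tested. The sham level of Slc17a7 in the hippocampus was 2260 CPM by library totals alone.

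The counts of genes called in the thalamus were 1950 with DESeq2, 2671 with voom, 3457 with one fit for all areas, 0 with the covariate, 2089 without rats 1 and 6, and 0 to 2421 with 1 rat left out (0 without rat 3, 5, 7 or 8). In the hippocampus they were 46 with DESeq2, 263 without rats 3 and 8, 82 without rats 3, 4, 5 and 8, and 0 to 1 with 1 rat left out.

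For the interactions, Cbln1 between cortex and hippocampus passed with DESeq2 (-1.57) and without the hippocampal libraries of rats 3 and 8 (-2.28). The latter is not independent of the choice of these rats, which stood apart in Cbln1 itself. With 1 rat left out, Slc17a7 ranged from -0.85 to -0.23 between cortex and thalamus and from 0.62 to 1.19 between thalamus and hippocampus, and Slc17a6 from -0.050 to 0.34 between cortex and thalamus. With the rat as replicate block, no call of a member changed, and the genes called were 107 for cortex against thalamus, 50 for cortex against hippocampus and 15 for thalamus against hippocampus. In the same order, DESeq2 called 266, 335 and 345. With 1 rat left out the counts were 65 to 136, 14 to 116 and 0 to 1402. Between cortex and hippocampus they were 36 without the hippocampal libraries of sham-operated rats 4 and 5, 26 without those of rats 3 and 8, and 537 with only the 2 areas in the fit. Between thalamus and hippocampus these 3 settings gave 0, 0 and 0, and no filter gave 18.

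Counts were lowest for Cbln1 in cortex and hippocampus and for Slc17a6 in the hippocampus, where counting error adds to the spread between rats.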
